A study of Mus musculus with 12 samples.

Results

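The transcripts of 9 coagulation and fibrinolysis genes were followed in mouse monocytes: Plau, Plat, Plaur, F3, F7, F10, F5, Tfpi and Procr. The genes were chosen by name, as plasminogen activators, their receptor and the coagulation factors and regulators that myeloid cells can make. Earlier results of these data were known when the choice was made, so the members are not an unbiased sample of genes. All 9 were present, among 52553 features in all, and all 9 passed the filter on low counts, which kept 20135 features. Cells carrying CD115, the receptor for macrophage colony-stimulating factor, were taken with magnetic beads from the spleen or the peripheral blood of male C57BL/6 mice. The mice were either intact, with spleen and liver in place, or had 70% of the liver resected 24 h earlier with the spleen preserved. No animal of these 4 groups was splenectomized, and no genetic change or drug is given in the labels. The paper describes isoflurane anaesthesia for the operations and the painkiller meloxicam before and after them. The labels name no sham-operated group, so effects of surgery, anaesthesia and drug cannot be told apart from that of the resection. The age of the mice is not given in the sources used here. Each group had 3 libraries, and each library pooled the cells of 5 mice. It is not stated that the 3 libraries of a group came from separate operations, so the p-values measure the spread between these libraries.

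Blood clotting starts when tissue factor (F3), a membrane protein, binds factor VII (F7), and the complex activates factor X (F10). Activated factor X with its cofactor, factor V (F5), turns prothrombin into thrombin, which makes fibrin. Tissue factor pathway inhibitor (Tfpi) blocks the initiating complex, and the endothelial protein C receptor (Procr) helps thrombin to activate protein C, an anticoagulant. Fibrin is removed by plasmin, which urokinase (Plau), bound to its receptor (Plaur), and tissue plasminogen activator (Plat) release from plasminogen. Monocytes are a known source of inducible tissue factor and of the urokinase receptor, and resident macrophages of the peritoneal cavity are known to make factors V and X.

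The libraries held from 36990033 to 46401368 estimated counts. Levels are given as CPM, the count scaled to the size of the library, with that size corrected for composition by the trimmed mean of M values (TMM); 3 counts, the limit that a count of 0 allows, correspond to 0.0626 to 0.102 CPM. Csf1r, which encodes CD115, was at 209 to 1192 CPM in every library. Transcripts of other cells were present as well. The summed level of 10 peritoneal macrophage markers, among them Gata6 and Prg4, was 361 to 1064 CPM in intact blood and 4921 to 5891 CPM in blood after resection, against 190 to 236 and 193 to 915 CPM in the spleen. Markers of neutrophils rose from 142 to 524 CPM in intact blood to 3842 to 19936 CPM after resection, with all 10 genes called higher. Haemoglobin transcripts took from 13.2% to 34.2% of the blood libraries and at most 3.47% of the splenic ones. In such bulk samples, fewer cells of a type and less RNA per cell cannot be told apart. Replicate 3 of intact blood had the lowest monocyte and the highest T cell marker sum of its group, and replicate 3 of both resection groups had the highest neutrophil sum. Values without these 3 libraries, left out after the data were seen, stand beside the results that rest on them.

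The DNA before the transcription start was read for the members with an entry in the RefSeq promoter table of build GRCm38.p6, 7 of the 9, with 8 windows between them; Plau and Plat had none. The files themselves carry no coordinates. The 3 windows below belong to members that were higher in blood after resection and hold a match to the AP-1 motif TGANTCA, a palindrome, in capitals. They are the 250 bases before the start, 5′ to 3′.
F3, chr3:121723287-121723536, + strand: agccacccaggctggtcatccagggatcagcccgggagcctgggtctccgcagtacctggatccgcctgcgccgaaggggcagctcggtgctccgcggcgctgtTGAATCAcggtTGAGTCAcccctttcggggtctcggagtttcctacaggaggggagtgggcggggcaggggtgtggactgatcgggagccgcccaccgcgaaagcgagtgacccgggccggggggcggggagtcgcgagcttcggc
Plaur, chr7:24462233-24462482, + strand: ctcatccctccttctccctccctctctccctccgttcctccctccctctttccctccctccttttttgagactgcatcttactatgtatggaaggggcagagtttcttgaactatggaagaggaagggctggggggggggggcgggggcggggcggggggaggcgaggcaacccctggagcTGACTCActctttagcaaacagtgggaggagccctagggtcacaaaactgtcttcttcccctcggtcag
Procr, chr2:155750967-155751216, + strand: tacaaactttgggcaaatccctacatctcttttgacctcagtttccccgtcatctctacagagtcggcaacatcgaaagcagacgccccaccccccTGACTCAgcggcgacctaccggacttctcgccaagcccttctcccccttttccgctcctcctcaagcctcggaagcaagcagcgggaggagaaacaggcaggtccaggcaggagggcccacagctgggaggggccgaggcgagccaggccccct
F3 had 2 matches, which began 146 and 135 bases before the start, Plaur had 1 at 69 bases and Procr had 1 at 154 bases. Such a match was found in 6.75% of the 32841 windows of the same length in the table. The windows of F7 and F10, neighbouring genes on chromosome 8, and the window of F5 held none. For Plaur and F5 the bases after the listed start were not found in an annotated transcript of the gene. Their windows and distances are therefore less certain. The SP1 motif GGGCGG, sought on both strands, was in the windows of F3, Plaur, F5 and Tfpi and in 32.7% of all windows, and in Plaur it overlapped a match to the EGR motif GCGNGGGCG, found in 4.70% of all windows. Matches to the C/EBP motif TTGCNNAA were in the windows of Plaur and Procr, beside 9.57% of all windows. A match to TATAAA was in 1 of the Tfpi windows, beside 12.4% of all windows. No member window held an exact match to the 10-base NF-kB consensus that was sought, which 3.90% of all windows held. Sites that depart from this consensus were not sought. A match describes the letters only and is not a binding site.

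After liver resection the coagulation and plasminogen activation transcripts were higher in blood monocytes, and 7 of the 9 genes passed the test there: Plau, Plaur, F3, F7, F10, F5 and Procr. None fell, while Plat and Tfpi did not pass. Over all features tested in blood 7.80% were called higher and 6.11% lower. A gene was called when the edgeR quasi-likelihood test gave a Benjamini-Hochberg adjusted p under 0.05 and the groups differed by more than 1 on the log2 scale. In the same 7 genes every blood library after resection was above every intact one, which held for 19.4% of all features. The median log2 fold change of the members was 3.38, against -0.10 over all features. With the 3 libraries that stood apart left out, 7 members were again called. Without replicate 3 of blood after resection 4 were called: Plaur (log2 fold change 1.72, adjusted p = 0.0502), F10 (4.05, adjusted p = 0.0519) and F5 (1.60, adjusted p = 0.0721) were lost.

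In splenic monocytes no member passed the test after resection, with 0.780% of all features called higher. All 9 fitted differences were above 0, with a median of 1.30 on the log2 scale against 0.05 for all features. In 5 genes (Plau, Plat, Plaur, F3 and Tfpi) the libraries of the 2 splenic groups did not overlap, which was so, in this direction, for 17.4% of all features. At an unadjusted p under 0.05 and the same limit on the fold change, edgeR called 4 members, Plau, Plaur, F3 and F7, beside 11.3% of all features in either direction, and DESeq2 with adjusted p called Plau and F3. Without replicate 3 of intact blood, which enters this comparison only through the shared estimate of the spread, Plau, Plaur and Tfpi were called. Shares of all features are throughout those of edgeR over all libraries. They do not hold for DESeq2 or for fits that left out a library.

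**Figure D1:**
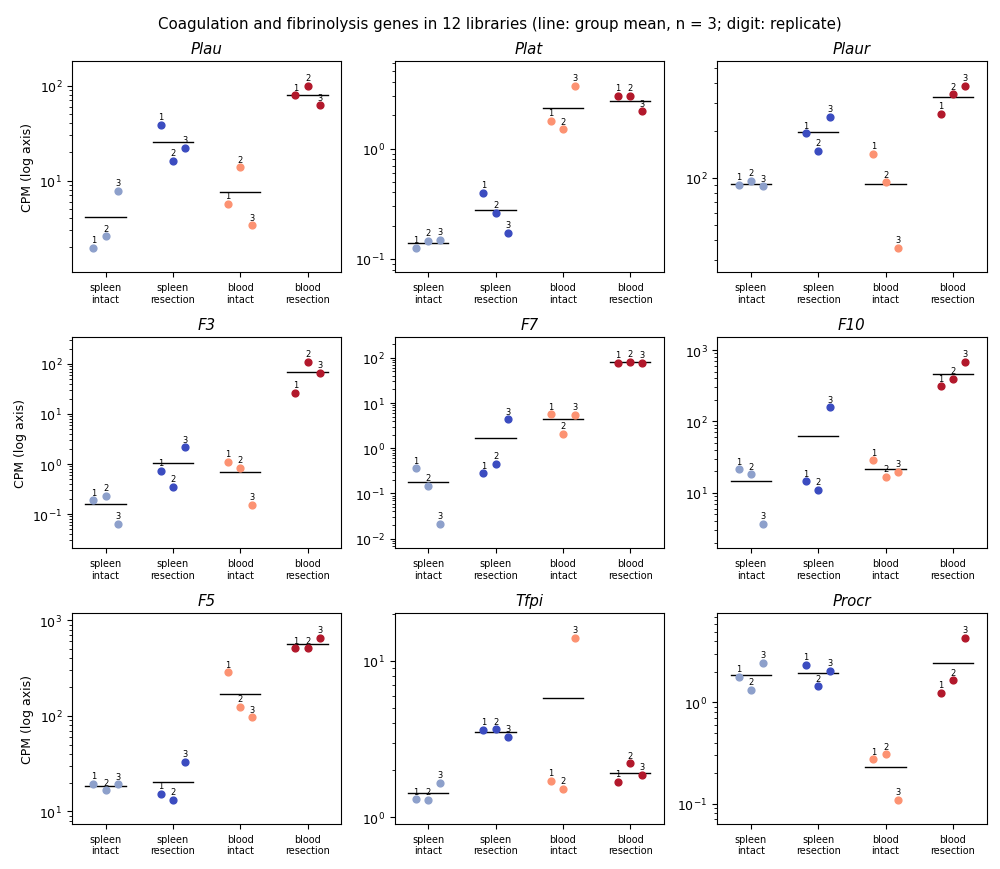
Level of each of the 9 genes in CPM (log axis) in the 4 groups; each point is 1 library, the digit is its replicate number and the line is the group mean (n = 3). Blood after resection lies above intact blood without overlap in Plau, Plaur, F3, F7, F10, F5 and Procr, and replicate 3 of the resected spleen stands above its group in F10 with 159 CPM.

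Urokinase, the plasminogen activator that acts on the cell surface, was higher after resection in blood and had the smallest adjusted p of all members in the spleen. Plau was at 5.70, 13.8 and 3.39 CPM in intact blood and at 79.3, 99.7 and 62.2 CPM after resection, a log2 fold change of 3.40 ± 0.66 (SE; adjusted p = 0.00714). Splenic Plau was at 1.96, 2.59 and 7.83 CPM in intact mice and at 38.7, 16.2 and 22.1 CPM after resection (2.64 ± 0.65, adjusted p = 0.0654). In both tissues the lowest library after resection was above the highest intact one. Between the tissues, Plau did not pass the test in intact mice (0.88) or after resection (1.65 ± 0.62, adjusted p = 0.0907), although all 3 blood libraries were then above the splenic ones. Without replicate 3 of intact blood the difference after resection passed (1.75, adjusted p = 0.0459).

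The urokinase receptor was the most abundant member per length in every group. Plaur was at 143, 94.1 and 35.9 CPM in intact blood and 257, 340 and 387 CPM after resection (log2 fold change 1.85 ± 0.41, adjusted p = 0.0126). The splenic libraries were at 90.7, 95.7 and 88.8 CPM in intact mice and 193, 149 and 245 CPM after resection (1.09 ± 0.41, adjusted p = 0.164). The intact splenic libraries lay within the range of the intact blood libraries, and the fitted difference between them, -0.01 on the log2 scale, turned to 0.48 without replicate 3 of intact blood. After resection blood was above spleen in all libraries, by 0.75 on the log2 scale (adjusted p = 0.221).

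Tissue plasminogen activator was higher in blood than in spleen in both states and did not pass the test after resection in either tissue. Plat was at 1.79, 1.49 and 3.71 CPM in intact blood and 2.99, 2.99 and 2.17 CPM after resection, overlapping ranges with a log2 fold change of 0.22 ± 0.44 (adjusted p = 0.764). Splenic levels were 0.126, 0.146 and 0.149 CPM in intact mice and 0.397, 0.262 and 0.172 CPM after resection (0.97 ± 0.47, adjusted p = 0.274). Blood was above spleen by 4.02 ± 0.51 in intact mice (adjusted p = 0.00226) and by 3.28 ± 0.49 after resection (adjusted p = 0.00235). The 2 tissues did not overlap in either state, and no splenic library held more than 0.397 CPM.

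Tissue factor had the largest difference of all members after resection in blood. F3 was at 1.10, 0.848 and 0.153 CPM in intact blood and reached 26.6, 111 and 66.0 CPM after resection, a log2 fold change of 6.61 ± 0.97 (adjusted p = 0.00224). The spleen held 0.189, 0.230 and 0.0638 CPM in intact mice and 0.724, 0.349 and 2.14 CPM after resection (2.70 ± 0.92, adjusted p = 0.138). Every splenic library was below the lowest blood library after resection. Blood exceeded spleen after resection by 5.99 ± 0.94 (adjusted p = 0.00299), whereas in intact mice the 2.08 between them did not pass (adjusted p = 0.198).

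Factor VII was even among the blood libraries after resection. F7 was at 5.64, 2.06 and 5.44 CPM in intact blood and at 78.3, 82.1 and 77.8 CPM after resection (log2 fold change 4.18 ± 0.99, adjusted p = 0.0158). The splenic libraries were at 0.358, 0.146 and 0.0213 CPM in intact mice, the last of them a single count, and at 0.280, 0.458 and 4.33 CPM after resection (3.24 ± 1.08, adjusted p = 0.130). The highest of these was replicate 3, and without the 3 libraries that stood apart the splenic value was 1.07. F7 was higher in blood than in spleen in intact mice (4.62 ± 1.10, adjusted p = 0.0305) and after resection (5.56 ± 1.06, adjusted p = 0.00707). The call in intact mice was lost when any 1 of 6 libraries was left out, among them each splenic one (adjusted p = 0.0698, 0.112 and 0.0944), and in the fit with replicate number as a block (4.46, adjusted p = 0.0533).

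Factor X, whose gene follows F7 on the chromosome, was the second most abundant member per length in blood after resection. F10 was at 28.6, 16.7 and 19.8 CPM in intact blood and at 311, 397 and 689 CPM after resection (log2 fold change 4.42 ± 1.08, adjusted p = 0.0184). The call also missed the threshold without replicate 2 or 3 of intact blood (adjusted p = 0.0602 and 0.0501). Splenic F10 was at 21.4, 18.1 and 3.66 CPM in intact mice and at 14.5, 11 and 159 CPM after resection (2.09 ± 0.98, adjusted p = 0.261). Replicate 3 alone made the splenic mean higher: without it the log2 fold change was -0.18. Intact blood and spleen overlapped (0.59), and after resection blood exceeded spleen in all libraries by 2.92 ± 1.01 (adjusted p = 0.0701), or by 5.29 without that library (adjusted p = 0.00357). The next gene on the chromosome, Proz, which encodes protein Z, stayed between 2.73 and 3.37 CPM in all 6 blood libraries. In the spleen Proz was at 4.47 to 5.43 CPM in intact mice and at 1.55 to 2.47 CPM after resection. That difference did not pass the test (-1.20 ± 0.27, adjusted p = 0.0534).

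Factor V was already higher in blood than in spleen in intact mice. F5 was at 285, 124 and 96.2 CPM in intact blood and 509, 509 and 658 CPM after resection (log2 fold change 1.73 ± 0.44, adjusted p = 0.0209), a call also lost without replicate 2 of intact blood (adjusted p = 0.0745) or replicate 2 of blood after resection (adjusted p = 0.0535). Splenic F5 was at 19.4, 16.7 and 19.2 CPM in intact mice and 15.2, 13.2 and 32.9 CPM after resection, with overlapping ranges (0.15 ± 0.43, adjusted p = 0.886; -0.37 without replicate 3). Blood exceeded spleen by 3.19 ± 0.46 in intact mice (adjusted p = 0.00422) and by 4.77 ± 0.50 after resection (adjusted p = 0.000571). The latter was the smallest adjusted p of any member in any comparison.

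Tissue factor pathway inhibitor did not pass a test in any comparison. Tfpi was at 1.71, 1.52 and 14.1 CPM in intact blood and 1.68, 2.21 and 1.86 CPM after resection, and the fitted log2 fold change of -1.59 ± 0.74 (adjusted p = 0.151) became 0.24 without replicate 3 of intact blood. In the spleen it was at 1.30, 1.29 and 1.66 CPM in intact mice and 3.62, 3.65 and 3.27 CPM after resection (1.30 ± 0.73, adjusted p = 0.345). These splenic groups were tight and did not overlap, and without replicate 3 of intact blood, which widened the spread of this gene, the same difference passed (adjusted p = 0.0189). After resection all 3 blood libraries were below the splenic ones (-0.87 ± 0.73, adjusted p = 0.434).

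Procr, the protein C receptor, was the only member called lower in blood than in spleen, and only in intact mice. It was at 0.275, 0.308 and 0.109 CPM in intact blood and 1.25, 1.66 and 4.36 CPM after resection (log2 fold change 3.38 ± 0.61, adjusted p = 0.00492). The spleen held 1.79, 1.34 and 2.47 CPM in intact mice and 2.36, 1.44 and 2.04 CPM after resection, overlapping ranges with a difference of 0.06 ± 0.55 (adjusted p = 0.969). In intact mice blood was thus below spleen by 3.00 on the log2 scale (log2 fold change -3.00 ± 0.60, adjusted p = 0.0155), a call that was lost without replicate 1 or 3 of the intact spleen or replicate 1 of intact blood. After resection the tissues overlapped (0.32, adjusted p = 0.734; -0.31 without replicate 3 of blood).

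**Figure D2:**
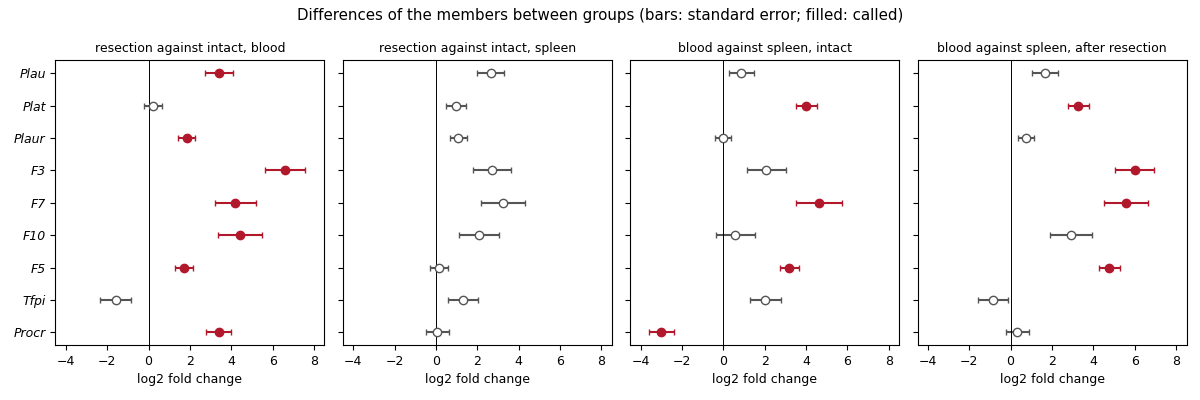
Log2 fold change of each gene in 4 comparisons, with the standard error as bar; filled points were called. In blood 7 genes were higher after resection, in spleen none passed, and Procr is the only gene called lower in blood than in spleen, in intact mice.

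Between the tissues in intact mice, Plat, F7 and F5 were higher in blood and Procr was lower, beside 3.86% of all features higher and 3.49% lower. After resection Plat, F3, F7 and F5 were higher in blood and none was lower, against 6.28% and 6.87% of all features. All blood libraries were then above all splenic ones in 7 members, as in 17.2% of all features, and below them in Tfpi, as in 25.1%. These comparisons share their libraries with those of the resection, so their members are not independent of them. Whether the resection effect itself differed between the tissues was tested as well. No member was called for such a difference by edgeR, with 0.283% of all features called in either direction. At an unadjusted p under 0.05 there were 4, beside 17.3% of all features: Procr (blood minus spleen 3.32, adjusted p = 0.117), F3 (3.91, adjusted p = 0.188), Tfpi (-2.89, adjusted p = 0.216) and F5 (1.58, adjusted p = 0.234). DESeq2 called F3 and Procr, for which no share of all features is given. The call in blood and the lack of one in spleen therefore do not show that the tissues responded differently.

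Levels of different genes were compared per length, as CPM per kilobase of the longest protein-coding transcript. In blood after resection Plaur stood at 218 ± 43.8 (SD, n = 3) and F10 at 186 ± 79.1, with overlapping libraries, followed by F5 at 75.2 ± 11.6. Next came F7 (42.7 ± 1.28), F3 (36.2 ± 22.5) and Plau (34.3 ± 8.01), whose order was not resolved by the libraries. Procr, Plat and Tfpi were lowest, at 1.52, 1.08 and 0.483. In intact blood the order was Plaur (60.4) and F5 (22.7), which overlapped, then F10 (8.67), Plau (3.25) and F7 (2.36), and the other 4 were below 2. In the spleen Plaur led in both states, at 60.9 ± 2.36 in intact mice and 130 ± 32.0 after resection, with F10 next at 5.76 and 24.5. Only Plaur was apart from all other members in both splenic groups.

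Ratios within a library do not depend on its size. The per-length ratio of F3 to its inhibitor Tfpi was 1.37, 1.19 and 0.0230 in intact blood and 33.6, 107 and 75.3 after resection. In the spleen it ranged from 0.0815 to 0.376 in intact mice and from 0.203 to 1.39 after resection. Tissue factor transcripts thus outnumbered those of its inhibitor by a wide margin in the blood libraries after resection alone.

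Among 51 other genes of these pathways, listed by role, 33 were tested. In blood after resection 12 were higher and 1 lower by edgeR, beside 7.80% and 6.11% of all features. In the spleen edgeR called none, while 10 had an unadjusted p under 0.05 with the same limit on the fold change (11.3% of all features) and DESeq2 called 6. In the test of whether blood and spleen differed in their response edgeR called none either, with 10 at such an unadjusted p and fold change (11.8% of all features) and 6 by DESeq2. Of the plasminogen and inhibitor genes 5 of 10 were tested and 3 rose in blood.

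Serpinb2, plasminogen activator inhibitor 2, was at 32.0, 12.2 and 22.5 CPM in intact blood and 288, 630 and 435 CPM after resection (4.34 ± 0.41, adjusted p = 0.000491), and was below 1 CPM in every splenic library. Serpinb8 (2.13) and Serpinb6a (1.49), intracellular serpins, also rose in blood. Serpine2, protease nexin 1, was lower in intact blood than in intact spleen (-3.45 ± 0.79, adjusted p = 0.0259), though not without 1 of 5 libraries (adjusted p up to 0.0975). Plasminogen itself (Plg) had at most 2 counts in a library.

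Of the 10 genes for plasminogen binding and activator clearance 9 were tested and 5 rose in blood. Anxa2, a cell-surface receptor for plasminogen and its activator, went from 207, 231 and 88.7 CPM to 400, 569 and 892 CPM, a log2 fold change of 1.82 ± 0.46 (adjusted p = 0.0207). The call was lost without replicate 2 or 3 of blood after resection (adjusted p = 0.0527 and 0.0826). Its partner S100a10 did not pass (0.96 ± 0.36, adjusted p = 0.0835), with libraries that did not overlap. Itgam and Itgb2, the subunits of the integrin Mac-1, which binds fibrinogen and the urokinase receptor, rose by 2.58 ± 0.68 (adjusted p = 0.0241) and 1.91 ± 0.30 (adjusted p = 0.00311). Itgam reached 2520, 3241 and 5038 CPM and is also made by neutrophils; its call was lost without replicate 2 or 3 of either blood group (adjusted p up to 0.077). Lrp1, which clears complexes of activator and inhibitor, rose by 1.52, and Eno1, a glycolytic enzyme that binds plasminogen, by 1.42. The plasminogen receptor gene Plgrkt (20.8 to 32.3 CPM) and Hmgb1 (155 to 623 CPM) did not pass in any comparison.

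Of the other coagulation factors 6 of 14 were tested. F13a1, the fibrin cross-linking subunit of factor XIII and a monocyte gene, rose in blood from 248, 185 and 93.2 CPM to 607, 684 and 967 CPM (2.10 ± 0.54, adjusted p = 0.0219), a call that was lost without replicate 2 or 3 of either blood group (adjusted p up to 0.0759). Vwf, von Willebrand factor, was higher in blood than in spleen both in intact mice (2.14 ± 0.45, adjusted p = 0.0187, up to 0.0654 without 1 library) and after resection (2.82 ± 0.46, adjusted p = 0.00358). F9, factor IX, was lower in blood in both states (-2.47 and -1.75), at no more than 1.26 CPM anywhere; the call after resection was lost in 5 of the 12 fits that left out a library (adjusted p up to 0.0977). The fibrinogen chains Fga, Fgb and Fgg, made by the liver, had at most 6 counts in a library, for Fgb in replicate 3 of intact blood. F2, prothrombin, did not pass the filter on low counts. It had 174 counts in that same library and at most 7 in any other.

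Of the anticoagulant genes 6 of 10 were tested and 3 rose in blood. Pros1, protein S, the cofactor of activated protein C, was at 54.4, 34.1 and 28.2 CPM in intact blood and 142, 153 and 110 CPM after resection (1.79 ± 0.39, adjusted p = 0.0113), and at 2.89 to 8.43 CPM in the spleen. Thbd, thrombomodulin, which acts with Procr on protein C, was at 21.2, 12.5 and 7.82 CPM in intact blood and 27.0, 31.0 and 25.8 CPM after resection (1.01 ± 0.31, adjusted p = 0.0450). Its difference lay just past both limits and the call was lost in 11 of the 12 fits that left out a library. In the spleen Thbd stood lower after resection, without overlap (-1.13 ± 0.32, adjusted p = 0.0890). Anxa5, which covers phosphatidylserine, rose in blood by 1.08, and in 1 of the 12 fits that left out a library it was no longer past the limit. Serping1, the C1 inhibitor, was higher in blood than in spleen in intact mice (2.67 ± 0.61, adjusted p = 0.0257), at 0.852 CPM or less in those libraries, a call lost in 3 of the 12 fits that left out a library (adjusted p up to 0.103). Gas6, a relative of protein S, did not pass in any comparison and ran from 0.881 to 19.7 CPM. Protein C itself (Proc) had no count in any library. Of the 4 protease-activated receptors F2rl3 was lower in blood after resection (-2.05 ± 0.63, adjusted p = 0.0423), where replicate 3 of intact blood held 4.46 CPM and the other intact libraries 0.963 and 0.848 CPM; without that library the difference was -0.85 (adjusted p = 0.146), and the call was lost in 10 of the 12 fits that left out a library. F2r, F2rl1 and F2rl2 were higher in blood than in spleen after resection (1.82, 3.39 and 1.87 on the log2 scale), and F2rl2 also in intact mice (2.24). Over the 12 fits that left out a library these calls were lost in 9 for F2r, 3 for F2rl1 and 5 for F2rl2 after resection and in 5 for F2rl2 in intact mice. The 3 genes of vitamin K dependent carboxylation, which the products of F7 and F10 need, did not pass in any comparison, with Vkorc1 at 8.09 to 31.3 CPM and Vkorc1l1 at 15.5 to 32.3 CPM.

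**Figure D3:**
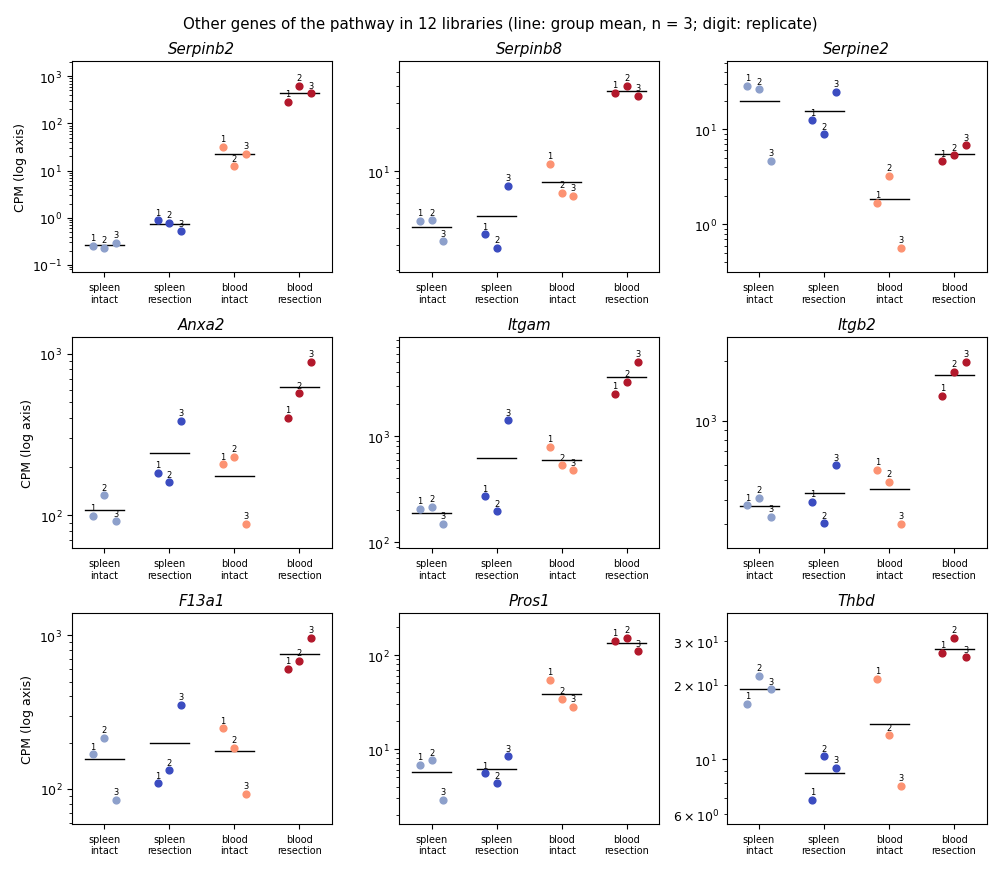
Level of 9 other genes of the pathway in CPM (log axis) in the 4 groups; points are libraries with their replicate number and lines are group means (n = 3). Serpinb2 reaches 288 to 630 CPM in blood after resection and is below 1 CPM in all splenic libraries.

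The members did not share a single pattern over the 12 libraries. The Pearson correlation of log2 CPM, given as a description of libraries that share group and composition, was 0.93 between F3 and F10, 0.92 between F7 and F5 and 0.91 between F7 and F10. Plau and Plaur were at 0.84, each with the other and with F3. Plat was nearest to F5 (0.88), and Tfpi was not above 0.28 with any other member. The genes outside the lists whose levels were most alike were Ggh and Degs1 for F3 (both 0.985), Stab1 (0.981) and Selp (0.979) for F7, and Lamp2 (0.974) and Cask (0.972) for F10. F5 was nearest to Fam78b and Fgfr1 (both 0.990), Plaur to Litaf (0.983) and Pi16 (0.980), and Plau to 1700101I11Rik (0.974) and Slc20a1 (0.965). For Plat they were Ttc34 (0.982) and Gm16104 (0.969), for Tfpi Cct2 (0.961), and for Procr Atp6v0a1 (0.970) and Dclre1c (0.953).

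Marker lists of other cells moved with these results, and their part in them was not tested. In blood after resection 8 of 10 peritoneal macrophage markers were called higher, with Gata6, their defining factor, at 5.86, 2.85 and 3.78 CPM in intact blood and 21.6, 23.7 and 17.7 CPM after resection. In the spleen Gata6 was at or below 0.163 CPM. The platelet and megakaryocyte markers summed to 117 to 425 CPM in intact blood, 886 to 970 CPM in blood after resection and 18.2 to 36.9 CPM in the spleen. Of these markers 1 of 10 was called higher in blood after resection, with a median log2 fold change of 0.50. Against the spleen 9 of 10 were higher in blood in intact mice and 10 of 10 after resection, as were Plat, F7, F5 and Vwf. So were 7 and 8 of 10 peritoneal macrophage markers, 5 and 3 of 6 T cell markers tested, and 5 of 7 erythroid markers in both states. Lower in blood than in spleen were 6 of 8 red pulp macrophage and 6 of 10 neutrophil markers in intact mice, and 5 and 2 after resection. Among red pulp macrophage markers 7 of 8 were called higher in blood after resection than in intact blood. Replicate 3 of the resected spleen, the library with the high F10 level, had a neutrophil marker sum of 15130 CPM, against 5832 and 5596 CPM in its group. Its peritoneal macrophage sum was 193 CPM, the lowest of the 3. This is 1 library, and a link of either sum to F10 was not tested. Of the 10 hepatocyte markers 1 passed the filter on low counts, the widely expressed Trf. In replicate 3 of intact blood 1 of the 10 was at 0 counts, against 6 to 8 in every other library. The mesothelial markers summed to at most 6.81 CPM in any library.

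**Figure D4:**
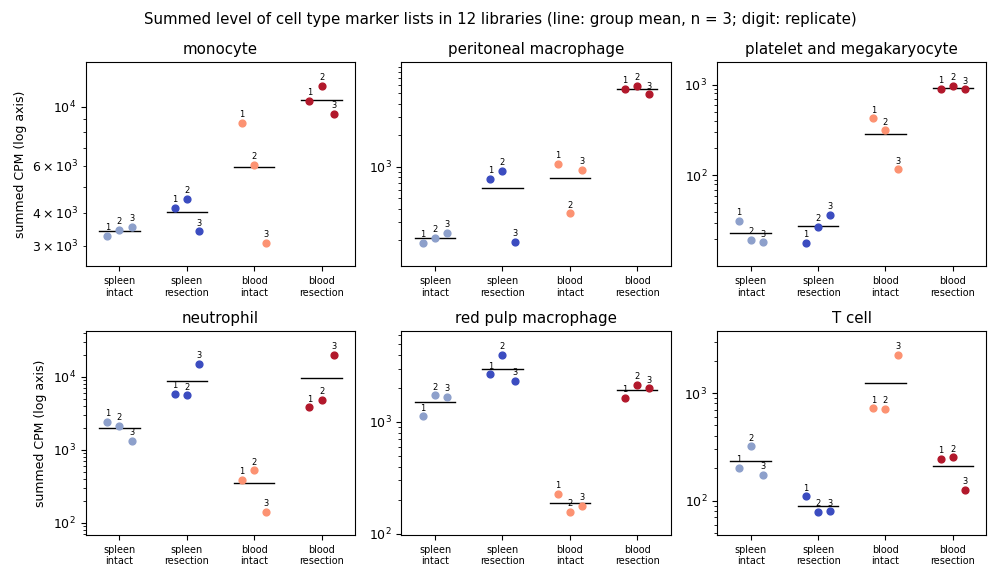
Summed CPM (log axis) of 6 lists of cell type markers in the 4 groups; points are libraries with their replicate number and lines are group means (n = 3). The monocyte sum runs from 3082 to 8681 CPM in intact blood and from 9391 to 11972 CPM in blood after resection. Of the 10 monocyte markers 2 were called higher and 1 lower between these groups, with a median log2 fold change of 0.80. The peritoneal macrophage, platelet, neutrophil and red pulp macrophage sums of blood after resection also lie above those of intact blood without overlap. The T cell sum lies below that of intact blood without overlap.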

How the data were processed

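Monocytes sorted for CD115 gave 12 RNA libraries, 3 for each tissue (spleen, blood) and state (intact, 24 h after a 70% liver resection), and 5 mice were pooled in each. Splenic cells were released mechanically and with collagenase and red cells lysed; both tissues passed a Ficoll gradient and CD115 beads. Groups came from the labels. For each library the authors deposited estimated counts that are not scaled to depth or length. The submitters' processing notes name STAR and the build GRCm39; the counter and annotation are not given in the sources used here, nor is the treatment of reads shared by genes, so overlapping genes are uncertain.

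Each table had 67088 entries. Accession entries were summed with their gene through RefSeq names of GRCm38.p6, none of which fell to a member; 2558 unassigned transcripts, 1.75% to 4.33% of a library, were left out. Counts were rounded. In R 4.3.3, edgeR 4.0.16 (filterByExpr, TMM, robust quasi-likelihood fit over all 4 groups without covariates, common dispersion 0.312) tested 20135 features, with Benjamini-Hochberg adjustment over all of them. The standard error is the absolute log2 fold change divided by the square root of F. Lengths are those of the longest protein-coding transcript. Correlations used log2 CPM with a prior count of 2. Without molecular identifiers, the floor of 3 counts covers no error beyond counting. No 2 libraries of a group agreed within sampling noise (chi-square over its degrees of freedom 21.3 to 618), and each was a replicate. The code was tested on simulated data.

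The members, the pathway and marker lists and the motifs were chosen with earlier results of these data known. Named are all members, the listed genes called in a comparison or with a group mean of at least 10 CPM, and for each member the 2 genes with the highest correlation; 2 genes that this rule names are not reported here. Genes at 0 or at a few counts (Plg, Proc, fibrinogen chains) and F2 were added for their role after their values were seen. The alternatives were DESeq2 1.42.0, RLE scaling, other filters, no limit on the fold change, unadjusted p, the entries as deposited, haemoglobin left out, a replicate block, fits restricted to the groups compared, and the removal of each library.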

Additional observations from a re-analysis of the deposited data

How the results depend on the processing

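The number of members called after resection in blood, 7, was 6 with DESeq2, which gave an adjusted p to 7 of the 9, 5 with only the 2 groups compared, 7 in the fit with a replicate block and 4 to 7 with a library left out. In the spleen, none was called; DESeq2 called 2, an unadjusted p 4, the fit without the 3 libraries that stood apart 1 (Tfpi), and fits without a library 0 to 3. Between blood and spleen in intact mice the 4 calls were 2 to 4 with a library left out, with 2 when replicate 1 or 3 of the intact spleen or replicate 1 of intact blood was missing, and 3 with the replicate block, which lost F7. After resection 4 to 6 were called throughout. For the difference of the resection effect DESeq2 called 2 and an unadjusted p 4, against 0 otherwise, also with a library left out. Shares of all features called by DESeq2 and in fits on fewer libraries are not given, so those counts lack that background.

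Libraries of the same replicate number correlated little: of 18 same-number pairs, 2 were above 0.1 (range -0.05 to 0.19). Both lay between spleen and blood after resection, at 0.13 for replicate 2 and 0.19 for replicate 3. With 3 libraries in a group these values cannot decide whether blood and spleen of a number came from the same mice. The replicate block is given as an alternative only. F7 in intact mice was the only member call that the block changed. Among the other genes named, it ended the calls in blood of Anxa2 (adjusted p = 0.0506), F13a1 (0.0537), Thbd (0.0684) and F2rl3 (0.0999) and that of Serpine2 between intact tissues (0.0521).

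The sign changed only in differences that were not called. Tfpi after resection in blood ran from -1.96 to 0.24 with a library left out and was 0.27 without the 3 libraries; in the spleen F10 ran from -0.18 to 2.59 (-0.18 without the 3), F5 from -0.37 to 0.38 (-0.37) and Procr from -0.12 to 0.31. Plaur between blood and spleen in intact mice was 0.07 with DESeq2, 0.08 with RLE scaling, without a filter and with the entries as deposited, 0.10 without haemoglobin, 0.48 without the 3 libraries and -0.43 to 0.48 with a library left out. Procr between the tissues after resection ran from -0.31 to 0.72 (-0.28 without the 3). The tissue difference of the effect ran from -0.09 to 1.53 for Plau and from -0.09 to 3.11 for F7. The causes were not tested. Of the other settings for single members, 941 kept direction and side of the threshold, 25 passed it and 20 fell short. Low splenic counts limit Plat, F3 and F7.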
